A study of Mus musculus with 90 samples.

Results

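The IL-6 family is a group of secreted cytokines that share the signalling receptor gp130, and it was followed here through 10 genes: the ligands Il6, Lif, Il11, Clcf1 and Osm and the receptors Il6st, Il6ra, Lifr, Osmr and Il11ra1. These 10 were taken by gene symbol from the 55011 symbols of the count table, and each symbol was found once. Counts came from 90 mouse libraries in 29 groups. Of these, 44 held mesenchymal stromal cells of hindlimb muscle (MmSCs), sorted as PDGFRa+ Sca1+ CD31- CD45- and used as 1000 cells a library, and the other 46 held whole tissue.

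The MmSC libraries form separate sets, and each group has 3 libraries except Yoda1 at 2 h with 2. In a first exercise set, cells were taken from mice of 8 to 10 weeks, titled WT, 1 day after acute exercise (AEX) and from sedentary mice (SED). In a training set, they came from mice of the same age after exercise training (EXT) and from sedentary mice. In the Pdgfra-Cre AEX set, mice with floxed Piezo1 (FL) and mice with intact Piezo1 (WT), all carrying Pdgfra-Cre, were compared 1 day after AEX and at rest. In the Pdgfra-Cre CTX set, FL and WT mice with the same driver were sampled 1 day after intramuscular cardiotoxin (CTX), a venom peptide used to injure muscle fibres. Yoda1 is a small molecule that opens the mechanically gated channel Piezo1, and sorted cells were cultured with 25 uM of it. One culture set held 2 h of Yoda1 and a vehicle group at 0 h, from Pdgfra-Cre mice with intact Piezo1, and another held 4 h and 6 h of Yoda1 and an unstimulated vehicle group, whose genotype the labels do not give. Whole tibialis anterior (TA) muscle was taken from FL and WT mice on days 1, 3 and 7 after CTX, with 4 libraries per genotype on day 1 and 3 later. The TA libraries called FL here carry KO in their titles. Uninjured quadriceps (3 libraries a group) and liver (4 a group) were compared between FL and WT, and so were hearts 3 days after skeletal muscle injury and uninjured hearts from another cohort (3 a group). All FL and WT mice carried Pdgfra-Cre, so no group shows these tissues without the driver. Ages outside the first and training sets are not given. No label says that replicates came from separate animals, so p-values measure the spread between these libraries.

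Ligands of this family signal through gp130, the product of Il6st, together with further receptor chains, some of them shared. IL-6 uses the chain encoded by Il6ra, IL-11 uses Il11ra1, LIF and oncostatin M use the chains of Lifr and Osmr as partners of gp130, and the product of Clcf1 signals through the receptor for ciliary neurotrophic factor together with LIFR and gp130. Engaged gp130 activates JAK kinases and STAT3, which turns on Socs3, a feedback inhibitor of the same receptor. In muscle, IL-6 is known as a cytokine released during exercise, and LIF, IL-11 and oncostatin M are known from studies of repair, fibrosis and myeloid cells.

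In mm10, by GENCODE M21, the ligand genes lie at chr5:30013114-30019981 on the plus strand (Il6), chr11:4257557-4272514 plus (Lif), chr11:4236420-4241026 plus (Osm), chr7:4772373-4782859 minus (Il11) and chr19:4214238-4223490 plus (Clcf1). The receptor genes lie at chr13:112464070-112510086 plus (Il6st), chr3:89864059-89913196 minus (Il6ra), chr15:7090614-7197489 plus (Lifr), chr15:6813577-6874969 minus (Osmr) and chr4:41699989-41769474 plus (Il11ra1). Lif and Osm are thus close together on chromosome 11, as are Lifr and Osmr on chromosome 15. Values cover all exons of a gene.

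The promoters of the ligands that rose together after 4 h of Yoda1 and after CTX are shown because those genes carry the findings that follow. Each sequence is the 250 bases before a RefSeq transcription start in GRCm38.p6, read 5′ to 3′ along the gene's strand. Capitals mark matches, on either strand, to the NF-kB consensus, AP-1 (TGANTCA), the core of the cAMP response element (ACGTCA) and C/EBP (TTGNGCAA). The Il6 window lies at chr5:30012864-30013113, plus strand, the Lif window at chr11:4257318-4257567, plus strand, and the window of the second listed Il11 start at chr7:4778142-4778391, minus strand.
Il6: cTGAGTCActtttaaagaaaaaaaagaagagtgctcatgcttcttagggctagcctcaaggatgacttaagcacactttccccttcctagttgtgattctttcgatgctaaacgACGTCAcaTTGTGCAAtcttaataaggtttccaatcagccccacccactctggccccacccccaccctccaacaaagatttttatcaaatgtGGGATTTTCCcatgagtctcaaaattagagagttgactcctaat
Lif: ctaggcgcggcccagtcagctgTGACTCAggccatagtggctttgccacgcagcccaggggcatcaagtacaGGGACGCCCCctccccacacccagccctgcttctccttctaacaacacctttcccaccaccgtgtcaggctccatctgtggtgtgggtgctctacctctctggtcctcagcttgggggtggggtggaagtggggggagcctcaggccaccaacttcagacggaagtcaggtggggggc
Il11: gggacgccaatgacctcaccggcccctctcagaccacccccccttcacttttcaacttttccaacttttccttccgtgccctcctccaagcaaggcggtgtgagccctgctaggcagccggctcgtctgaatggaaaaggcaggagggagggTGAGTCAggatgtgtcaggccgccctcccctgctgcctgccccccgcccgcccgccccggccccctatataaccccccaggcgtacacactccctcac
The Il6 window held a match to each of these 4 motifs: AP-1 from -249 to -243, the cAMP element core from -136 to -131, C/EBP from -128 to -121 and NF-kB from -44 to -35, counted from the base before the start as -1. The Lif window held AP-1 at -228 to -222 and NF-kB at -178 to -169, and the Il11 window held AP-1 alone, at -98 to -92. No 2 of these matches overlap. Among all 32536 promoter windows of this length, 7.28% held the NF-kB motif, 6.73% AP-1, 6.5% the cAMP element core and 2.61% C/EBP. Another motif, STAT (TTCNNNGAA), was in 7.04% of windows and in none of the member windows. The first Il11 start and the windows of Il6st, Il6ra, Lifr, Osmr and Il11ra1 held no match to any of the 5. The motifs were chosen after the Il6 window had been seen, a match describes letters only, and the same table gave no window for Clcf1 or Osm.

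Levels are in CPM, counts scaled to a common library total after TMM normalization, and each is given as mean ± SD. A member was called higher or lower where edgeR's quasi-likelihood test gave a Benjamini-Hochberg adjusted p under 0.05 over all genes tested in that comparison. Where groups are said not to overlap, how many of all genes do the same was not counted. Totals ran from 1806248 to 10258234 counts in MmSCs, 4051973 to 10226407 in TA muscle and 27461930 to 38376123 in heart and liver. The sorted cells were stromal by their markers: 7 stromal genes summed to 27373 to 128872 CPM in MmSC libraries, while macrophage and monocyte genes summed to at most 32.3 CPM and neutrophil genes to at most 4.07 CPM. The endothelial sum ranged more widely, from 17.4 to 488 CPM. Piezo1 was not called lower in any FL group. It measured 47.9 to 79.2 CPM in FL against 39.4 to 48.0 CPM in WT MmSCs at rest. The ranges were 57.9 to 84.7 against 50.5 to 59.7 CPM after AEX and 50.9 to 54.5 against 59.2 to 68.1 CPM after CTX. But whole-gene counts say nothing of single floxed exons, and 24.6% of Piezo1 exon length overlaps Ctu2 on the opposite strand. FL and WT therefore mean the libraries labelled so, with FL in TA muscle standing for the title KO.

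The stromal cells carried receptor and ligand transcripts of the family at once. Per kilobase of exon (RPKM), Il11ra1 was the most abundant member in sedentary MmSCs of the first set (94.1 ± 0.534 RPKM), ahead of Il6st (42.2 ± 2.90 RPKM) and Lifr (40.1 ± 5.22 RPKM), and Il6st and Lifr lay within each other's spread. Osmr followed at 11.1 ± 1.23 RPKM and Il6ra at 3.75 ± 0.734 RPKM. Il6ra was the least abundant of the 5 receptors in sedentary MmSCs of all 3 exercise sets, with 1.71 ± 0.331 RPKM in the Pdgfra-Cre WT group and 5.19 ± 0.975 RPKM in the training set. Among the ligands of the first set, Lif (3.06 ± 0.246 RPKM) stood above Clcf1 (1.10 ± 0.465 RPKM), and Osm was near 0 at 0.186 ± 0.0702 RPKM. In the other sets Il6 led: it was the most abundant member at rest in Pdgfra-Cre WT cells (76.1 ± 25.0 RPKM, with Il11ra1 at 69.8 ± 10.4 within its spread) and in the training set (115 ± 27.6 RPKM, with Il6st at 94.8 ± 4.22 within its spread). Il11ra1 has a near-identical copy, Il11ra2, which reached at most 2 counts in a library, so few reads were assigned to it, and how reads that match both were handled is not given.

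Il6 separated the MmSC sets. In the first set it measured 0.330, 1.35 and 1.44 CPM in the 3 AEX libraries, against 1.35, 0.754 and 0 CPM in the 3 sedentary ones, and it was below the filter on low counts. Sedentary libraries of the other exercise sets held 357, 240.2 and 243 CPM (training set) and 171, 132 and 251 CPM (Pdgfra-Cre WT), so the libraries of the first set did not overlap with any of them. Osmr and Socs3 were lower in the first set too: sedentary Osmr was 134 ± 14.9 CPM there, 603 ± 138 CPM in Pdgfra-Cre WT cells and 756 ± 63.2 CPM in the training set. Sedentary Socs3 was 176 ± 17.4, 761 ± 82.0 and 1734 ± 247 CPM in that order. Lifr went the other way, with 432 ± 56.2 CPM in the first set, 224 ± 30.7 CPM in Pdgfra-Cre WT and 204 ± 14.46 CPM in the training set. The genes whose group means were most like those of Il6 over the 15 MmSC groups were Noct, Tgif1, Nr4a2 and Rcan1 (Pearson r 0.978 to 0.994), and the same split runs through them: Nr4a2, a nuclear receptor induced early after stimulation, measured 0.984 ± 0.707 CPM in sedentary cells of the first set, 125 ± 88.6 CPM in Pdgfra-Cre WT and 207 ± 70.0 CPM in the training set. Without the 2 groups of the first set, r fell to between 0.658 and 0.903 over 13 groups. By the same measure over 15 groups, the genes most like Osmr were Rab20, Abl2, Icam1 and Trib1 (r 0.947 to 0.965). Over the 13 groups without the first set, their r fell to between 0.726 and 0.912. Those most like Clcf1 were Gpatch4, Mybbp1a, Dhx15 and Emc6 (r 0.930 to 0.959 over 15 groups, 0.918 to 0.945 over 13). All these groups share their cell type and differ by set and depth. The cause of this difference between sets was not tested, and levels are compared only within a set from here on, CTX excepted.

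**Figure D1:**
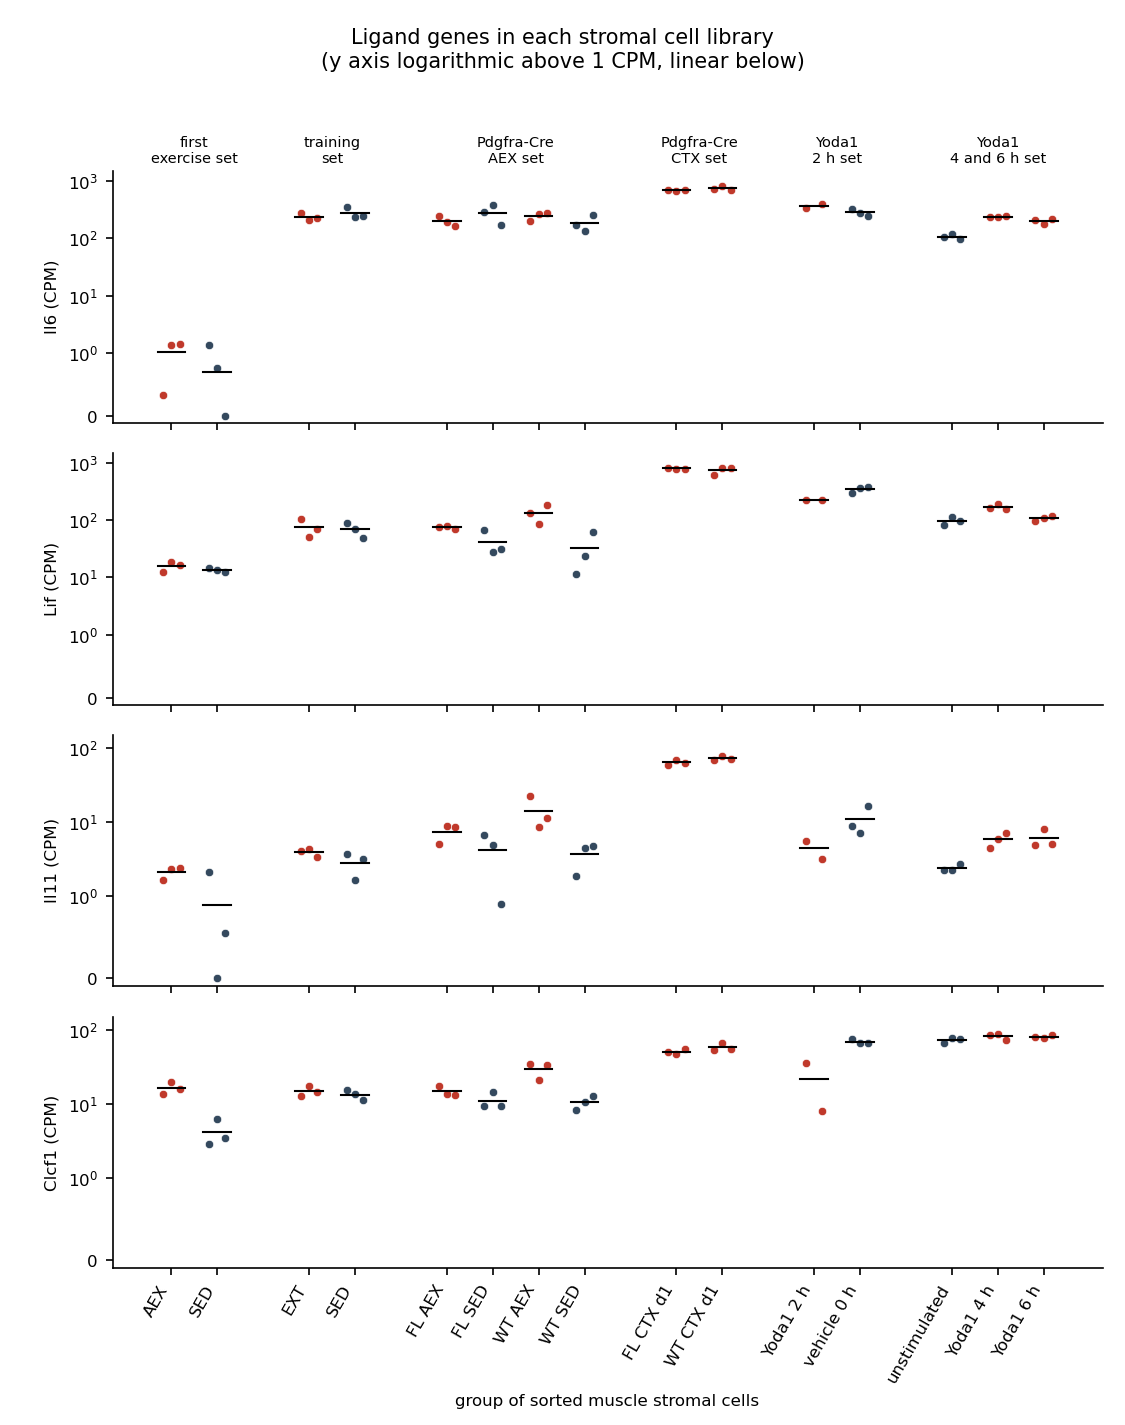
Each point is a library and each line a group mean of Il6, Lif, Il11 or Clcf1 in sorted MmSCs, in CPM on an axis that is logarithmic above 1 and linear below, with red for treated and blue for control groups. Il6 stays at or under 1.44 CPM in the first exercise set and is at least 97.5 CPM in each library of the other sets.

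Acute exercise was followed by more Clcf1, the gene of cardiotrophin-like cytokine factor 1. In the first set it measured 13.4, 19.7 and 15.7 CPM in the AEX libraries, against 2.85, 6.18 and 3.48 CPM in the SED libraries. The lowest AEX library was above the highest SED library (log2 1.95, SE 0.327, adjusted p = 0.0257 by edgeR). Osmr, the oncostatin M receptor chain, measured 254, 217 and 229 CPM after AEX, against 149, 119 and 135 CPM in SED. These groups did not overlap either (log2 0.80, SE 0.139, adjusted p = 0.0301). Clcf1 and Osmr were the 2 members called among 8 tested, where 0.736% of all 12777 genes tested were called in either direction. Lif measured 15.9 ± 3.15 CPM after AEX and 13.3 ± 1.07 CPM in SED (adjusted p = 0.677), and Il6st, Il6ra, Lifr and Il11ra1 differed by log2 -0.26 to 0.25, none called. Il11 was scarce and not called, at 1.65, 2.32 and 2.41 CPM after AEX and 2.10, 0 and 0.549 CPM in SED (adjusted p = 0.548). Lifr was uneven after AEX, with 823, 328 and 394 CPM. Endothelial markers summed to 224 to 271 CPM after AEX and 318 to 488 CPM in SED, and their part in these differences was not tested. Each call was lost when 5 of the 6 libraries were left out singly: Clcf1 kept log2 1.73 to 2.36 with adjusted p up to 0.120, and Osmr was called only with all 6 libraries or without AEX replicate 1.

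The Pdgfra-Cre set repeated the exercise comparison in other mice. In WT cells, Clcf1 measured 33.9, 21.0 and 33.1 CPM after AEX, against 8.17, 10.4 and 12.9 CPM at rest, again without overlap (log2 1.51, SE 0.280, adjusted p = 0.0148). It was the 1 member called of 9 tested, where 0.992% of all 14821 genes tested were called. Lif, the leukaemia inhibitory factor gene, measured 136, 84.4 and 183 CPM after AEX and 11.4, 23.7 and 60.9 CPM at rest. Every AEX library of Lif was above every resting one, but the spread was wide and it was not called (log2 2.10, SE 0.567, adjusted p = 0.136). Il11 behaved the same way, with 21.99, 8.44 and 11.2 CPM after AEX and 1.84, 4.45 and 4.69 CPM at rest (log2 1.95, SE 0.552, adjusted p = 0.101). Without a count of all genes that separate so, this only describes Lif and Il11. Il6 was 247 ± 37.4 CPM after AEX and 185 ± 60.6 CPM at rest (adjusted p = 0.532). The receptors stayed within log2 -0.34 (Il6st) and 0.36 (Il6ra). Osmr, called in the first set, was 612 ± 131 CPM after AEX and 603 ± 138 CPM at rest (log2 0.05, SE 0.205, adjusted p = 0.966).

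The call of Clcf1 was lost when any of 4 single libraries was left out (adjusted p 0.0123 to 0.115 over the 6). The 12 columns of the Pdgfra-Cre AEX set could be tied to a group but not to a sample, and in 4 of them, replicate a of each group, the column name is also the title of a sample of another group. Without those 4, Clcf1 had log2 1.56 (adjusted p = 0.0609), and Lif had log2 2.95 (adjusted p = 0.00435). DESeq2 called all 3 of Lif, Il11 and Clcf1 higher. The stromal marker sum was 42956 to 53262 CPM after AEX and 58837 to 128872 CPM at rest in WT. The endothelial sum was 65.8 to 109 CPM after AEX and 145 to 174 CPM at rest, with 1 of 2 endothelial genes tested called lower. The part of either in these differences was not tested.

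In FL cells no member was called after AEX, with 9 tested and 0.162% of all genes called. Clcf1 measured 17.1, 13.5 and 13.2 CPM after AEX, against 9.21, 14.52 and 9.19 CPM at rest, and these overlapped (log2 0.42, SE 0.280, adjusted p = 0.756). Lif measured 76.3, 77.6 and 69.5 CPM after AEX, against 66.1, 27.8 and 31.9 CPM at rest (log2 0.84, SE 0.551, adjusted p = 0.761). Il6 measured 245, 189 and 163 CPM after AEX, against 285, 379.6 and 171 CPM at rest (log2 -0.47, SE 0.258, adjusted p = 0.686). The test of the difference itself, the AEX change in FL minus that in WT, called none of the 9 members and 0% of all genes. Its estimates for the ligands tested were log2 -1.26 for Lif (SE 0.778) and -1.09 for Clcf1 (SE 0.393). Those for Il11 and Il6 were log2 -1.08 (SE 0.769) and -0.92 (SE 0.364), and adjusted p ran from 0.815 to 0.892 over the 4. The median over all genes was log2 -0.004, so estimates below 0 were common, and the 4 rest on the same libraries. After AEX, Clcf1 in FL libraries (13.2 to 17.1 CPM) lay below Clcf1 in WT libraries (21.0 to 33.9 CPM), with an unadjusted p of 0.00156 and an adjusted p of 0.906 from edgeR. At rest, Il6ra measured 18.8, 34.0 and 24.6 CPM in FL cells, against 17.5, 15.1 and 11.8 CPM in WT cells (log2 0.80, SE 0.271, adjusted p = 0.426). Neither comparison of FL with WT called a member, with 0% of all genes called after AEX and 0.00675% at rest.

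After exercise training no member was called among 9 tested, where 0.484% of all 12802 genes were. Clcf1 measured 12.7, 17.1 and 14.6 CPM after EXT, against 15.3, 13.4 and 11.1 CPM in SED, and Il6 273, 206 and 228 CPM after EXT, against 357, 240.2 and 243 CPM in SED. Both overlapped between the groups (log2 0.15, SE 0.215, adjusted p = 0.838 for Clcf1). Lifr, the LIF receptor chain, at 209.8 to 270.1 CPM after EXT and 190.2 to 219 CPM in SED, and Osmr, at 834 to 924 and 694 to 821 CPM, had the smallest unadjusted p of the members (0.0564 and 0.0628, edgeR). Whether the response of Clcf1 differs between acute exercise and training was not tested, since the sets differ in every library.

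**Figure D2:**
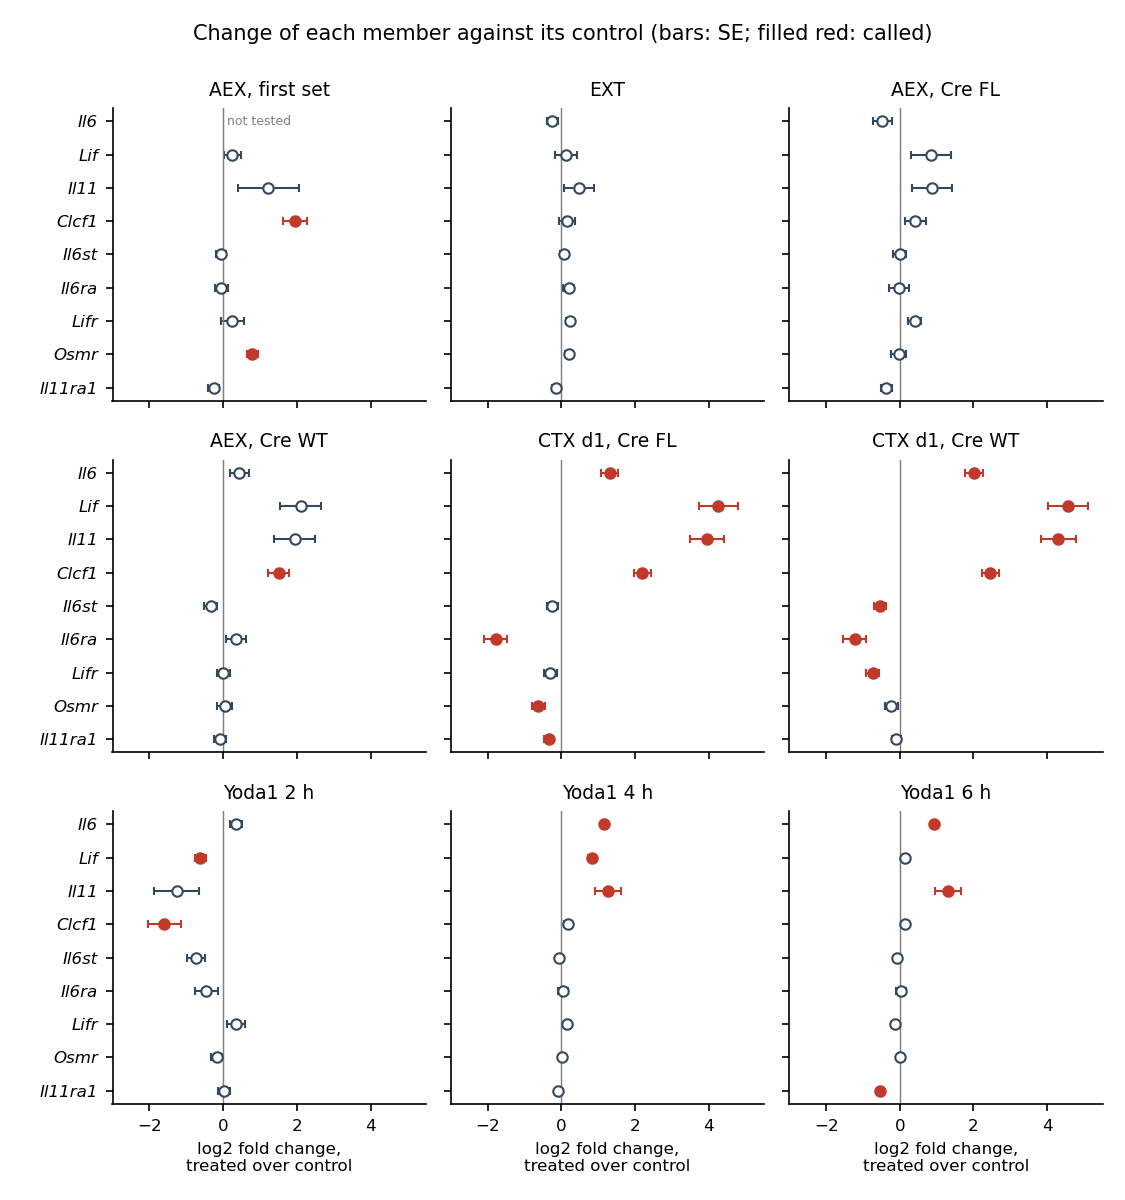
Log2 fold change of each member (x axis, treated over control) with its SE in 9 MmSC comparisons, filled red where called at an adjusted p under 0.05. Clcf1 is to the right of 0 in both AEX comparisons of intact mice, the 4 ligands tested are right of 0 on day 1 after CTX in both genotypes, and Il6 and Il11 are right of 0 after 4 h and 6 h of Yoda1.

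In cells cultured with Yoda1, Il6, Lif and Il11 were higher after 4 h than in unstimulated cells, whose time in culture is not given. After 4 h, Il6 measured 239, 231 and 241 CPM, against 104, 119 and 97.5 CPM in unstimulated cells. All 3 Yoda1 libraries were far above the unstimulated ones, with the smallest p of any member in culture (log2 1.15, SE 0.0751, adjusted p = 1.31e-12). Lif measured 164, 189 and 159 CPM at 4 h, against 81.6, 112 and 94.9 CPM unstimulated (log2 0.83, SE 0.0955, adjusted p = 1.11e-06). Il11, a ligand known from stromal and fibrotic tissue, stayed scarce but measured 4.39, 5.95 and 7.10 CPM at 4 h, against 2.26, 2.22 and 2.72 CPM unstimulated (log2 1.26, SE 0.350, adjusted p = 0.0259), and its call was lost when any of 4 single libraries was left out. Of 9 members tested, these 3 were called and 5.71% of all 13756 genes were. Clcf1, the ligand called after AEX, measured 85.5, 87.9 and 72.5 CPM at 4 h, against 66.8, 77.4 and 74.7 CPM unstimulated (log2 0.17, SE 0.0940, adjusted p = 0.356). No receptor was called at 4 h, and the 5 lay between log2 -0.08 (Il11ra1) and 0.14 (Lifr), each with an SE of at most 0.138.

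At 6 h the pattern had partly receded. Il6 measured 209, 181 and 217 CPM, against 104, 119 and 97.5 CPM in the same unstimulated cells (log2 0.92, SE 0.0756, adjusted p = 4.74e-11), and Il11 measured 4.87, 8.11 and 5.01 CPM, against 2.26, 2.22 and 2.72 CPM (log2 1.31, SE 0.352, adjusted p = 0.00918; without 6 h replicate 2, adjusted p = 0.103). Lif was back at 95.2, 109 and 117 CPM and was not called (log2 0.15, SE 0.0981, adjusted p = 0.350). Il11ra1, the IL-11 receptor chain, measured 198, 196 and 170.3 CPM at 6 h, against 275, 273 and 273 CPM unstimulated. It was the 1 receptor called and it was lower (log2 -0.54, SE 0.0631, adjusted p = 7.24e-08). In all, 3 of 9 members were called at 6 h, where 13.2% of all genes were. Set directly against 4 h, the 6 h cells had less Lif (log2 -0.67, SE 0.0964, adjusted p = 1.61e-05), Il11ra1 (log2 -0.46, SE 0.0635, adjusted p = 3.84e-06), Lifr (log2 -0.27, SE 0.0791, adjusted p = 0.0201) and Il6 (log2 -0.23, SE 0.0733, adjusted p = 0.0388). That is 4 of 9 members, with 10.9% of all genes called, but the calls of Il6 and Lifr were lost without the filter on low counts and when any of 5 (Il6) or 4 (Lifr) single libraries was left out. The 4 h and 6 h comparisons share their unstimulated libraries, which cannot match both times. Yoda1 and time in culture therefore cannot be fully told apart at 4 h and 6 h. Summed stromal markers were 94965 to 101727 CPM at 4 h, 74929.6 to 78850.3 CPM at 6 h and 101341 to 110553 CPM unstimulated, with 6 of 7 stromal genes called lower at 6 h, and their part in the lower Il11ra1 was not tested.

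In the 2 h culture set 2 ligands were called lower: Lif, which was higher at 4 h in the other set, and Clcf1, which was not called there. Lif measured 226 and 227 CPM after 2 h of Yoda1, against 300.3, 359.7 and 379.6 CPM in vehicle at 0 h (log2 -0.61, SE 0.157, adjusted p = 0.0321). Clcf1 measured 35.2 and 7.98 CPM after 2 h, against 74.6, 65.2 and 65.1 CPM in vehicle (log2 -1.59, SE 0.438, adjusted p = 0.0418), its 2 libraries far apart. These 2 of 9 members were called, both lower, where 11.2% of all 12782 genes were called. Il6 measured 336 and 390.1 CPM after 2 h, against 329, 277 and 243 CPM in vehicle (log2 0.36, SE 0.166, adjusted p = 0.192). Piezo1, the target of Yoda1, measured 30.8 and 22.4 CPM after 2 h, against 94.4 to 127 CPM in vehicle, and its part was not tested. The second Yoda1 library was the shallowest of all, with 1806248 counts. Without it, Clcf1 had log2 -0.97 (adjusted p = 0.00678), and without the other it had log2 -3.12 (adjusted p = 1.79e-07), the lone library then being assumed to vary like the vehicle group. Both calls were lost without any 1 vehicle library. The vehicle group was taken at 0 h and the treated cells at 2 h, so Yoda1 and time in culture cannot be told apart here.

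Socs3 and the pathway genes were read beside the members, by lists of 11 other family members, 14 signalling genes, 9 feedback genes and 18 genes known as STAT3 responses. Socs3 was not called at 4 h of Yoda1, where Il6 and Lif had risen (218 ± 11.1 against 195 ± 5.02 CPM unstimulated, log2 0.16, SE 0.0651, adjusted p = 0.152), and it was lower at 6 h (134 ± 6.62 CPM, log2 -0.54, SE 0.0670, adjusted p = 2.41e-07). It was also lower after 2 h (log2 -0.78, SE 0.196, adjusted p = 0.0297). Of 16 STAT3 response genes tested at 4 h, 3 were higher and 3 lower, where 5.71% of all genes were called. Their median was log2 -0.06, against -0.004 over all genes. The largest rises were those of Cebpd, a C/EBP transcription factor, at 41.8 ± 4.10 CPM against 20.1 ± 3.01 CPM unstimulated (log2 1.06, adjusted p = 4.88e-06), and Pim1, a survival kinase (log2 0.46, adjusted p = 0.0106), and Mcl1, a survival factor, was the third that rose (log2 0.43, adjusted p = 2.55e-04). Timp1, an inhibitor of metalloproteases, was lower (log2 -0.44, adjusted p = 0.0181), and so were the survival gene Bcl2l1 (log2 -0.42, adjusted p = 6.65e-04) and the adhesion molecule Icam1 (log2 -0.39, adjusted p = 2.79e-05). At 6 h, where 13.2% of all genes were called, 1 of the 16 was higher and 4 lower. Of 9 feedback genes, 2 (Cish and Socs3) were lower at 6 h and 1 (Socs5) was higher.

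After AEX, Timp1, the inhibitor of metalloproteases that is also a STAT3 response gene, was higher in both sets of intact mice: 563 ± 344 CPM after AEX against 24.7 ± 4.496 CPM in SED in the first (log2 4.51, adjusted p = 0.0395), and 970.0 ± 234 against 129.7 ± 30.1 CPM in Pdgfra-Cre WT (log2 2.92, adjusted p = 0.0274). It was the member of these lists with the largest fold in each. Icam1 and the feedback gene Socs2 were also higher in the first set, and Serpina3n, an acute phase protease inhibitor, in the other. Adam17, a protease that sheds IL-6 receptor from the cell surface, was lower in Pdgfra-Cre WT cells after AEX (log2 -0.89, adjusted p = 0.0123). Socs3 itself was not called after AEX in either set, with log2 0.10 (SE 0.142) and -0.03 (SE 0.160), nor after EXT (log2 -0.44, SE 0.145). None of the genes of the 4 lists was called after AEX in FL cells.

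On day 1 after cardiotoxin the stromal cells carried more Il6, Lif and Il11 than any other MmSC group by mean CPM. Lif measured 828.8, 793 and 786 CPM in FL and 627, 826 and 809 CPM in WT cells after CTX, against 66.1, 27.8 and 31.9 CPM in FL and 11.4, 23.7 and 60.9 CPM in WT cells at rest. Il11 measured 59.1, 69.3 and 61.8 CPM in FL and 67.7, 77.8 and 70.3 CPM in WT cells after CTX, against 4.11 ± 2.93 CPM in FL and 3.66 ± 1.58 CPM in WT cells at rest. Il6 measured 685, 679.7 and 706 CPM in FL and 730.3, 808 and 698 CPM in WT cells after CTX, against 279 ± 105 CPM in FL and 185 ± 60.6 CPM in WT cells at rest. Clcf1 measured 49.6, 46.6 and 54.3 CPM in FL and 52.3, 65.6 and 54.7 CPM in WT cells after CTX, against 10.97 ± 3.07 CPM in FL and 10.5 ± 2.35 CPM in WT cells at rest. For each of these 4 ligands, every CTX library was above every resting library of its genotype. How many of all genes separate in this way was not counted, so this is a description of the 4 only.

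In FL cells the change was log2 4.26 for Lif (SE 0.525, adjusted p = 1.82e-05), 3.96 for Il11 (SE 0.463), 2.19 for Clcf1 (SE 0.226) and 1.31 for Il6 (SE 0.236, adjusted p = 1.22e-04). In WT cells the change was log2 4.57 for Lif (SE 0.536, adjusted p = 1.16e-05), 4.30 for Il11 (SE 0.476), 2.46 for Clcf1 (SE 0.230) and 2.01 for Il6 (SE 0.241, adjusted p = 9.18e-07). All 4 were called in both genotypes. Receptors went down or were not called. Il6ra measured 4.74, 6.40 and 11.3 CPM in FL and 7.17, 6.27 and 5.49 CPM in WT cells after CTX, against 18.8, 34.0 and 24.6 CPM in FL and 17.5, 15.1 and 11.8 CPM in WT cells at rest (log2 -1.79 in FL and -1.23 in WT, both called). Lifr and Il6st were also lower in WT (log2 -0.73 and -0.54), and Osmr and Il11ra1 in FL (log2 -0.63 and -0.34). The call of Il11ra1 was lost without the filter on low counts, without the doubtful resting columns (adjusted p = 0.0745) and when any of 4 single libraries was left out, and that of Il6st was lost without WT CTX replicate 1 (adjusted p = 0.0566). Each genotype thus had 7 of 9 tested members called, where 44.6% of all genes were called in FL and 43.9% in WT, so calls were common and the folds say more than the counts. The median gene lay at log2 -0.12 in FL and -0.14 in WT.

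The CTX and resting libraries belong to separate sets, so injury and set cannot be told apart. Both the stromal sum (34279 to 40737 CPM after CTX, 58837 to 128872 CPM at rest in WT) and the endothelial sum (17.4 to 29.6 and 145 to 174 CPM) were lower after CTX, while macrophage and monocyte markers summed to 8.46 to 10.1 CPM after CTX and 13.8 to 17.2 CPM at rest in WT. Within the CTX set, FL and WT cells could be compared directly, and none of the 9 members was called, where 1.79% of all 12957 genes were. The differences between FL and WT were small with narrow errors: log2 0.10 for Lif (SE 0.0932), -0.10 for Il6 (SE 0.0681), -0.19 for Clcf1 (SE 0.114) and -0.18 for Il11 (SE 0.0994). Among receptors the widest was Il6ra, at log2 0.25 (SE 0.299).

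Socs3 did not follow the ligands after CTX. It measured 359 ± 39.6 CPM in FL and 429 ± 81.0 CPM in WT after CTX, against 813 ± 142 CPM in FL and 761 ± 82.0 CPM in WT at rest, and was called lower in both (log2 -1.18 and -0.83). The STAT3 response genes moved both ways. Higher were the acute phase genes Saa3 (log2 2.37 in FL, 6.45 in WT), Lcn2 (2.41 and 3.40) and Serpina3n (2.25 and 2.62). Timp1 was also higher (4.29 and 4.44). Lower in both were Cebpd (-1.72 and -2.28), which rose after 4 h of Yoda1, and Lbp, another secreted acute phase protein (-1.27 and -0.82). Cebpd measured 14.6 ± 1.04 CPM in FL and 12.8 ± 0.340 CPM in WT cells after CTX. At rest Cebpd measured 48.2 ± 14.5 CPM in FL and 62.5 ± 21.2 CPM in WT cells. Of the 17 response genes tested, 6 were higher and 5 lower in FL, and 7 higher and 2 lower in WT, against 44.6% of all genes called in FL and 43.9% in WT. Of the 9 feedback genes, 1 was higher and 5 lower in each genotype, Ptpn2 being the one that rose in both.

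Osm, the oncostatin M gene, was at or near 0 in the sorted cells. Osm had no more than 1 CPM in 42 of 44 MmSC libraries and was below the filter in each MmSC comparison. The exceptions were FL CTX replicate 3 with 1.74 CPM and the second 2 h Yoda1 library with 3.73 CPM. In whole TA muscle after CTX it was measurable. On day 1 Osm was 8.68, 2.88, 4.20 and 8.88 CPM in FL and 5.62, 8.51, 6.56 and 9.43 CPM in WT muscle. It then declined. In WT muscle it measured 1.57, 1.54 and 3.495 CPM on day 3 and 0, 0 and 1.54 CPM on day 7 (log2 -1.77, SE 0.546, adjusted p = 0.0178 for day 3 against day 1, and log2 -3.80, SE 0.690, adjusted p = 8.94e-05 for day 7). In FL muscle it measured 5.18, 3.63 and 3.79 CPM on day 3, not called against day 1 (log2 -0.57, SE 0.519, adjusted p = 0.397), and 0, 0 and 0.147 CPM on day 7, where 3 libraries held 1 count in all against 164 counts on day 1, a ratio of 0.00891 with an exact counting interval of 0.000224 to 0.0503. Whether day and genotype interact was tested, and Osm was not called (adjusted p = 0.260). In bulk muscle, fewer cells of a type and less RNA per cell cannot be told apart. Neutrophil markers summed to 179 to 421, 42.6 to 59.3 and 1.37 to 8.89 CPM on days 1, 3 and 7 in FL, and to 172 to 294, 42.8 to 77.6 and 6.29 to 11.2 CPM in WT, all 6 markers being detected on day 1 in both, and their part in the decline of Osm was not tested. The genes most like Osm over 8 TA and quadriceps groups were Lbr, Cd177, Il1rap and Gcnt2 (Pearson r 0.990 to 0.996), and Cd177 encodes a surface protein of neutrophils. These means share their tissue and depth and carry no test.

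**Figure D3:**
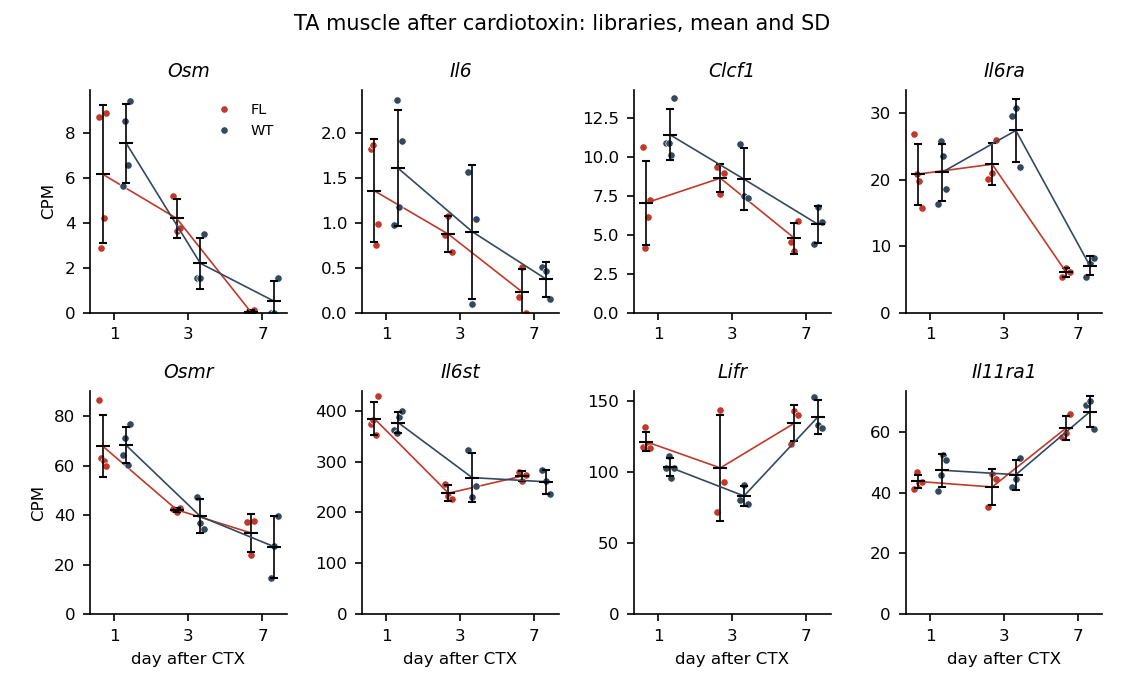
CPM of 8 members in TA muscle (y axis) on days 1, 3 and 7 after CTX (x axis, evenly spaced), with FL in red left of WT in blue, a point per library and bars for mean and SD. Osm, Il6, Osmr and Il6ra are lowest on day 7 in both genotypes by their means, and Lifr and Il11ra1 are highest on day 7.

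Over the same days other members moved both ways. Osmr and Il6st, the pair that oncostatin M engages, were already lower on day 3. Osmr measured 42.5, 41.4 and 42.8 CPM on day 3 against 86.7, 63.3, 62.0 and 60.02 CPM on day 1 in FL (log2 -0.69, SE 0.222, adjusted p = 0.0145), and 47.4, 36.9 and 34.4 CPM against 64.5, 71.4, 60.3 and 76.8 CPM in WT (log2 -0.79, SE 0.223, adjusted p = 0.0104). Il6st measured 255, 232 and 227 CPM on day 3 against 375, 382, 351 and 428 CPM on day 1 in FL (log2 -0.69, SE 0.129, adjusted p = 1.18e-04), and 323, 229.6 and 252 CPM against 363, 357, 387 and 399 CPM in WT (log2 -0.49, SE 0.128, adjusted p = 0.00614). No day 3 library of either gene reached its day 1 range. Leaving out WT day 3 replicate 2 ended all 3 WT calls on day 3, those of Osm, Osmr and Il6st, leaving out WT day 3 replicate 1 ended that of Osm, and leaving out FL day 1 replicate 1 ended that of Osmr in FL. Against day 1, 2 of 10 members were called on day 3 in FL and 3 of 10 in WT, where 44.6% and 26.8% of all genes were.

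By day 7 Il6ra had dropped as well. It measured 5.41, 6.69 and 6.18 CPM on day 7 against 26.9, 20.9, 19.8 and 15.8 CPM on day 1 in FL (log2 -1.77, SE 0.236, adjusted p = 2.27e-06), and 5.44, 7.52 and 8.29 CPM against 16.4, 25.8, 23.6 and 18.6 CPM in WT (log2 -1.57, SE 0.230, adjusted p = 6.85e-06). On day 3 it had not been called, at 22.3 ± 3.16 CPM in FL and 27.4 ± 4.78 CPM in WT. Macrophage and monocyte markers summed to 2510.4 to 3582, 7656 to 8221 and 935 to 1522 CPM on days 1, 3 and 7 in FL, and to 2751 to 4173, 6304 to 8085 and 827 to 1431 CPM in WT, and their part was not tested. Il11ra1 went up, with 58.4, 59.7 and 66.0 CPM on day 7 against 41.3, 46.7, 43.4 and 43.6 CPM on day 1 in FL (log2 0.49, SE 0.132, adjusted p = 0.00487), and 68.9, 70.3 and 61.0 CPM against 40.6, 45.8, 52.5 and 51.0 CPM in WT (log2 0.49, SE 0.131, adjusted p = 0.00369). Lifr was higher in WT (log2 0.43, SE 0.158, adjusted p = 0.0314; not called when any of 4 single libraries was left out) and not called in FL (log2 0.15, SE 0.159, adjusted p = 0.493).

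Il6 itself was scarce in whole muscle. It measured 0.174, 0.515 and 0 CPM in FL and 0.510, 0.461 and 0.154 CPM in WT on day 7, against 1.82, 1.87, 0.751 and 0.987 CPM in FL and 0.978, 2.36, 1.18 and 1.91 CPM in WT on day 1 (log2 -2.54 and -2.07, adjusted p = 0.0248 and 0.0366). These rest on 4 counts against 37 in FL and 7 against 51 in WT, their calls were lost when any of 4 (FL) or 5 (WT) single libraries was left out, and the counting intervals of the ratios run from 0.0409 to 0.440 and from 0.0878 to 0.508. Clcf1 fell in WT, to 4.42, 6.76 and 5.83 CPM on day 7 against 10.9, 10.9, 10.1 and 13.8 CPM on day 1 (log2 -1.003, SE 0.284, adjusted p = 0.00589), and was not called in FL (log2 -0.55, SE 0.294, adjusted p = 0.144). Lif and Il11 stayed under 4 CPM in each TA library and were not called. Of 10 members on day 7, 6 were called in FL and 8 in WT, where 39.2% and 44.5% of all genes were. Socs3 was also lower than on day 1, with log2 -1.91 in FL and -1.19 in WT on day 3 and -1.51 and -1.89 on day 7. In FL its mean was 27.8 ± 7.62 CPM on day 3 and 36.5 ± 5.71 CPM on day 7, so it did not keep falling as Osm did. Of the STAT3 response list, 11 of 16 genes tested were lower and 1 higher on day 7 in FL, and 13 lower and none higher in WT. Their median was log2 -1.13 and -1.62, against -0.003 and -0.02 over all genes. Myc, a growth factor response gene, had log2 -2.70 and -2.51, and Lcn2, a protein of neutrophil granules, -5.40 and -6.56. Stat3 transcript was lower as well (log2 -0.95 and -1.02). Whether these changes are linked to those of the members, or to the cell content of the muscle, was not tested.

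Between FL and WT muscle no member was called on any day. On day 1, 0.0774% of all 15499 genes were called, on day 3 8.98% and on day 7 0%, and the joint test of genotype with day called 3.89% of genes and none of the 10 members. On day 1 the member with the smallest unadjusted p was Clcf1, at 10.6, 4.17, 6.15 and 7.24 CPM in FL and 10.9, 10.9, 10.1 and 13.8 CPM in WT (log2 -0.69, SE 0.254, adjusted p = 0.668). Il6st was near equal in level, at 384 ± 32.3 CPM in FL and 377 ± 20.03 CPM in WT on day 1 (log2 0.03, SE 0.118, adjusted p = 0.986). On day 3 all 5 muscle fibre markers were called lower in FL muscle, and they summed to 4016 to 14359.8 CPM in FL and 32279 to 53005 CPM in WT. Osm then measured 4.20 ± 0.855 CPM in FL and 2.20 ± 1.12 CPM in WT (log2 0.92, SE 0.576, adjusted p = 0.364), a difference that was not called, and the part of the fibre markers in it was not tested. Among the family's other members Ctf1, a gp130 ligand, had 0 counts in the 3 FL libraries of day 3 and 0.973 ± 0.879 CPM in WT, and was called lower (adjusted p = 0.0200).

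Uninjured quadriceps, heart and liver gave the family's receptor profile in other tissue. In quadriceps the order per kilobase was Il6st (19.7 ± 1.29 RPKM in FL, 19.0 ± 0.165 in WT), Lifr (15.8 ± 1.16 and 16.5 ± 1.34) and Il11ra1 (9.07 ± 0.629 and 9.83 ± 0.885). Heart had Il6st ahead of Il11ra1 and Lifr (27.6 ± 0.851, 17.0 ± 0.571 and 12.4 ± 0.963 RPKM in uninjured WT). Liver was led by Lifr, at 60.3 ± 9.33 RPKM in FL and 61.8 ± 12.2 RPKM in WT, over Il6st at 14.8 ± 3.94 and 11.3 ± 2.53 RPKM, and Osmr was 0.466 ± 0.240 and 0.300 ± 0.0952 RPKM. Liver Lifr measured 774, 571, 566 and 689 CPM in FL and 762, 524, 586 and 791 CPM in WT. Ligands were low in all 3 tissues: Il6 had at most 0.292 CPM in quadriceps, 0.380 CPM in heart and 0.0932 CPM in liver. Clcf1 had the highest mean RPKM of the ligands in each uninjured group of these tissues, and its levels were 0.721 ± 0.377 CPM in FL and 0.785 ± 0.210 CPM in WT quadriceps, 2.20 ± 0.636 and 1.82 ± 0.514 CPM in uninjured heart and 0.417 ± 0.201 and 0.623 ± 0.307 CPM in liver. Per kilobase, Clcf1 in uninjured heart (0.578 ± 0.167 RPKM in FL, 0.479 ± 0.135 in WT) was near the level of the receptor Il6ra (0.392 ± 0.138 and 0.475 ± 0.129 RPKM).

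**Figure D4:**
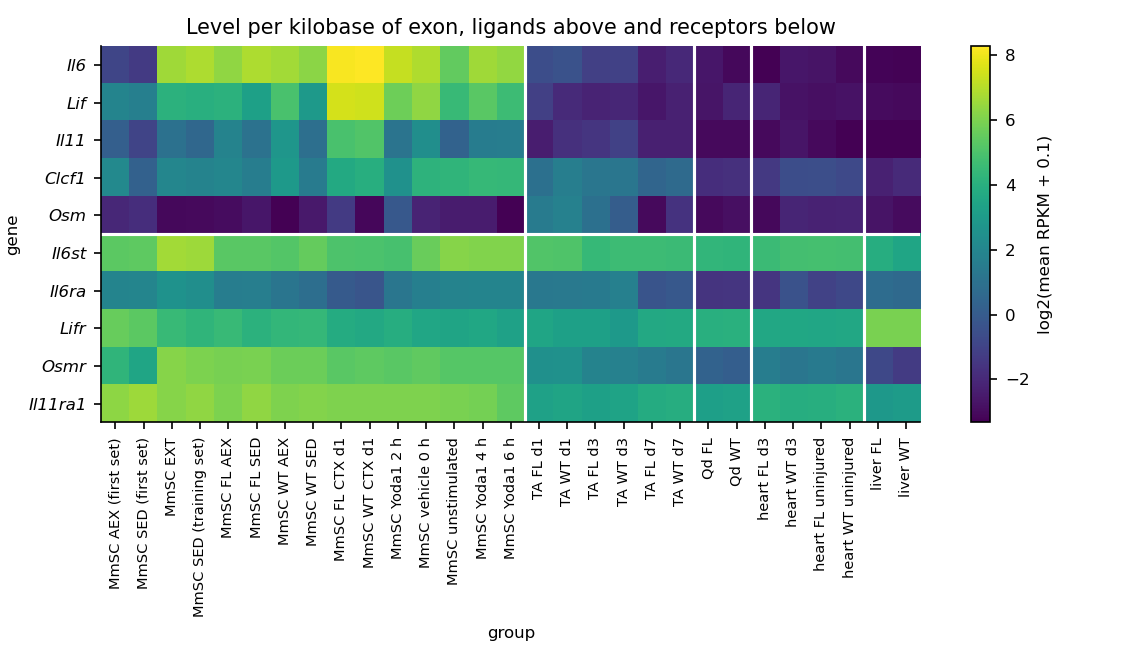
Mean level per kilobase of exon of the 10 members (rows, ligands above receptors) in the 29 groups (columns), as log2 of RPKM plus 0.1. Il6 and Lif are brightest in the MmSC columns after CTX, Osm is brightest in TA muscle on day 1, and Lifr is the brightest member in liver.

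No member was called between FL and WT in quadriceps (5 tested, 0% of all genes called), uninjured heart (8 tested, 0%) or liver (6 tested, 0%). In hearts 3 days after skeletal muscle injury none of 8 was called either, where 3.92% of all 18433 genes were. Il6ra came nearest there, with 2.99, 1.15 and 2.30 CPM in FL and 6.62, 5.89 and 4.38 CPM in WT. The 2 groups did not overlap (log2 -1.39, SE 0.384, adjusted p = 0.0552), with no count of how many of all genes do the same. It was called lower by DESeq2 (log2 -1.40, adjusted p = 0.00881) and without FL replicate 1 (log2 -1.71, adjusted p = 0.0235), and over all genes 1369 were called without that library and 722 with it. Day 3 hearts against uninjured hearts called no member in FL (4.75% of all genes) or in WT (0.103%), and those hearts came from separate cohorts. Over the 10 comparisons of FL with WT, 84 tests of members gave no call, with 8 unadjusted p under 0.05 by edgeR. Such p-values were common among all genes too. In MmSCs they numbered 1094 of 14821 genes at rest, 814 of 14821 after AEX and 1761 of 12957 after CTX.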

How the data were processed

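A library was made from 1000 MmSCs sorted in 2 rounds or from 2 ng of tissue RNA, per the labels' protocols. The submitters' processing notes name STAR 2.7.3a, featureCounts and the build mm10, but strand setting and treatment of multimapping reads were not given in the sources used here. Deposited by the authors as whole numbers, the counts per gene symbol were used as they stood. With no strand setting, reads of Il6ra and of Il11ra1 cannot be told apart from those of the opposite genes over 2.80% and 0.179% of their exon length, and 8.17% of Clcf1 is shared with a gene of the same strand. Nor can reads of Piezo1 be told apart from those of the opposite gene Ctu2 over 24.6% of its exon length.

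Of the count columns, 78 were tied to a sample and 12, of the Pdgfra-Cre AEX set, to a group only, with replicates called a, b and c. Each set was fitted in R 4.3.3 with edgeR 4.0.16: filterByExpr (minimum count 10), then TMM scaling, then the quasi-likelihood test in its robust form, with 11 fits and 28 comparisons. Comparisons of CTX with rest joined 2 sets in 1 fit. RPKM divides CPM by the exon length in GENCODE M21. SE is the log2 fold change over the square root of the F statistic. The genes most like a member were the 4 with the highest Pearson r of group means of log2 CPM (prior count 2), among genes reaching 10 CPM in a group, predicted genes left out.

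All members were named in each comparison, with Socs3 and at most 6 called genes per list. Members and lists were chosen with earlier results of these data known. Marker lists cover stromal, macrophage and monocyte, neutrophil, lymphocyte, endothelial, satellite, muscle fibre, heart and liver genes. In MmSCs lymphocyte, satellite, muscle fibre, heart and liver sums were at most 4.44, 14.2, 83.6, 9.47 and 19.7 CPM. Tests were also run on simulated counts. As alternatives, DESeq2 1.42.0, RLE scaling, each library left out in turn, no filter and the replicate number as a block were run, and, chosen after seeing the data, a fit without 4 doubtful columns. Counting intervals cover counting error only, at 95%.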

Additional observations from a re-analysis of the deposited data

Results flagged for a closer look

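In the groups of 4 libraries, 38 sets of member values were examined for 1 library far from its fellows. A gap over 0.829 of the range was flagged, which chance gives in about 1 of 20 sets of normally distributed values. That rate does not hold for counts near 0. In 5 a library stood apart. Osmr in TA muscle of FL mice on day 1 was 86.7 CPM in replicate 1, against 60.02 to 63.3 CPM in the other 3, and the same library had the highest neutrophil marker sum of its group (421 CPM, against 179 to 259 CPM). In liver, Clcf1 in FL replicate 3 was 0.117 CPM, below 0.501 to 0.528 CPM in the other 3. Osm in FL replicate 2 was 0.404 CPM, above 0 to 0.0581 CPM. Il6 was 0.0932 CPM in FL replicate 2 and 0.0606 CPM in WT replicate 3, with 0 in every other liver library. The gap is then the whole range at any count, so Il6 was bound to be flagged there.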

How the results depend on the processing

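No called member reversed its direction under the alternatives run, while uncalled Lifr at 2 h of Yoda1 changed sign (log2 -0.27 without the deeper Yoda1 library, 0.35 with all). Counts of members called changed as follows. For AEX in the first set they ran from 0 to 3 with 1 library left out (2 with all). For AEX in Pdgfra-Cre WT cells they were 2 without the filter, 3 with DESeq2 and 0 to 2 with 1 library left out (1 with all). For Yoda1 at 2 h the replicate block gave 1 and leaving out a library 0 to 3 (2 with all). For 6 h against 4 h, no filter gave 2 and leaving out a library 2 to 3 (4 with all). For TA day 3 against day 1, leaving out a library gave 1 to 3 in FL (2 with all) and 0 to 3 in WT (3 with all). For FL against WT hearts on day 3, no filter, the replicate block and DESeq2 each gave 1, and leaving out a library 0 to 2 (0 with all). For FL hearts on day 3 against uninjured, the replicate block and DESeq2 gave 1, and leaving out a library 0 to 1 (0 with all). The cause was not tested.

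The replicate numbers were not taken to pair libraries: same-numbered libraries had deviations correlated at r -0.0652 to 0.204, and in no comparison was every r above 0.1, although in some all were above 0. The replicate block ended the calls of Lif at 2 h of Yoda1 (adjusted p = 0.295) and of Il6 at 6 h against 4 h (0.0589). For the Pdgfra-Cre AEX set, and for CTX against rest, no paired analysis was possible because the columns of that set carry no numbers tied to samples. DESeq2 gave Il11 no adjusted p in the Yoda1 4 h and 6 h sets, so its call there has no second tool.

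Counts over all genes moved by more than 1.5 times in several comparisons. No filter and DESeq2 gave 650 and 428 for AEX in the first set (94 in the main test), 344 and 225 for EXT (62), 398 and 461 for AEX in Pdgfra-Cre WT (147), 119 and 78 in FL (24), 586 and 391 for FL against WT after CTX (232), 1208 and 1085 for genotype by day (603), 1457 and 1810 for day 3 hearts (722) and 1643 and 1911 for FL hearts over time (875). They gave 92 and 47 for FL against WT in TA muscle on day 1 (12) and 122 and 88 for WT hearts over time (19). They gave 15 and 10 for genotype by AEX, 20 and 4 for FL against WT after AEX, and 111 and 46 at rest, where the main test gave 0, 0 and 1. Where it gave 0 they gave 10 and 0 in TA muscle on day 7, 20 and 0 in quadriceps, 58 and 10 in uninjured heart and 1 and 14 in liver. Without the 4 doubtful columns, 71 genes were called between FL and WT at rest. The replicate block gave 460 for Yoda1 at 2 h (1437), 19 for EXT and 1358 for day 3 hearts. With 1 library left out, AEX in the first set ran from 1 to 975, AEX in Pdgfra-Cre WT from 15 to 230 and in FL from 1 to 34, EXT from 12 to 117, FL against WT after CTX from 98 to 387, Yoda1 at 2 h from 272 to 3047, FL against WT in TA muscle on day 3 from 431 to 1721 (1392) and in day 3 hearts from 24 to 1369, genotype by day from 243 to 837, and FL hearts over time from 74 to 1462. At 1806248 to 10258234 counts per MmSC library, Osm and, in the first set, Il6 were below what could be tested.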
